A study of Mus musculus with 8 samples.

Results

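The genes described here code for proteins that bring fatty acids into the cell and carry them inside it. They are Cd36, Slc27a2, Slc27a4, Lpl, Vldlr, Fabp1, Fabp2, Fabp4 and Fabp5, taken by symbol from a table of liver RNA, and all 9 were found among its 21532 genes. The liver came from 8 male db/db mice. This genotype has a mutated leptin receptor gene, so that mice of both groups were obese and diabetic, and no lean mouse was included. From an age of 8 weeks, 4 mice received AF1 peptide and 4 received a control at the same dose, which was 5 mg/kg body weight, injected behind the eye 2 times a week over 5 weeks. AF1 peptide is a synthetic peptide designed from the N-terminal part of estrogen receptor alpha, with stretches of that sequence deleted. It is joined to a TAT sequence that carries it into cells. The question asked of the data was how far AF1 peptide changed the RNA of each uptake and binding gene.

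Fatty acids reach the liver mainly from adipose tissue, bound to albumin, and from lipoproteins, whose triglyceride is split by lipases at the vessel wall. CD36 and the fatty acid transport proteins (the SLC27 family) help fatty acids cross the plasma membrane, and several SLC27 members also join them to coenzyme A, which keeps them in the cell. Fatty acid-binding proteins (FABPs) then hold them in solution in the cytoplasm. In fatty liver, genes that are normally more active in adipose tissue or macrophages, such as Cd36 and Fabp4, can be raised, and many genes of this group are targets of the peroxisome proliferator-activated receptors (PPARs), nuclear receptors that are themselves switched on by fatty acids.

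Values below are normalized counts unless another unit is named, that is the number of reads of a gene divided by 1 size factor per mouse. The log2(normalized count + 1) was compared by limma over the 15989 genes with a mean of at least 10, a scale that makes the changes of low genes look smaller than they are. A gene was called changed at an unadjusted p under 0.05, the threshold that the study names. Reads per mouse ranged from 23031880 to 45117528. The 13 mitochondrial genes took 22.4 to 34.3% of the reads in control mice, 34.3 to 37.8% in AF1 peptide replicates 2 to 4 and 20.8% in AF1 peptide replicate 1. AF1 peptide replicate 1 stood apart from the other mice in several of the genes below, so results are given with and without it.

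With AF1 peptide, Fabp2 and Slc27a4 fell, and none of the 9 genes rose. The mean log2 value was lower with AF1 peptide for 8 genes and higher for Slc27a2. The 2 calls make up 22.2% of the 9 genes, where 3.03% of all tested genes were called lower (484 genes) and 6.19% were called in either direction (990 genes). The median log2 fold change of the 9 genes was -0.33, against -0.0083 for all tested genes, of which 51.8% were lower. When AF1 peptide replicate 1 was left out, 7 of the 9 genes were lower and 2 higher (Fabp1 and Slc27a2), their median was -0.21, and Fabp2 alone was called (11.1% of the 9, where 5.48% of all tested genes were then called lower). The number of the 9 called lower was also 1 without control replicate 1 or 2, 2 without control replicate 4 or AF1 peptide replicate 3, 3 without control replicate 3 or AF1 peptide replicate 2, and 4 without AF1 peptide replicate 4. Over these fits, 1.59% (without control replicate 2) to 3.65% (without AF1 peptide replicate 4) of all tested genes were called lower. After Benjamini-Hochberg adjustment over all tested genes, limma gave the 9 genes adjusted p values of 0.763 to 0.937. No gene of the table had an adjusted p under 0.05 by limma or by edgeR on the recovered reads, and 3 had by DESeq2. The whole-table counts depended on single mice: without control replicate 2, 285 genes were called higher and 255 lower, and without AF1 peptide replicate 1 the counts were 732 and 876. With the libraries scaled to equal totals, the calls were 129 higher and 769 lower, a share of 14.4% higher where size factors gave 51.1%.

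**Figure D1:**
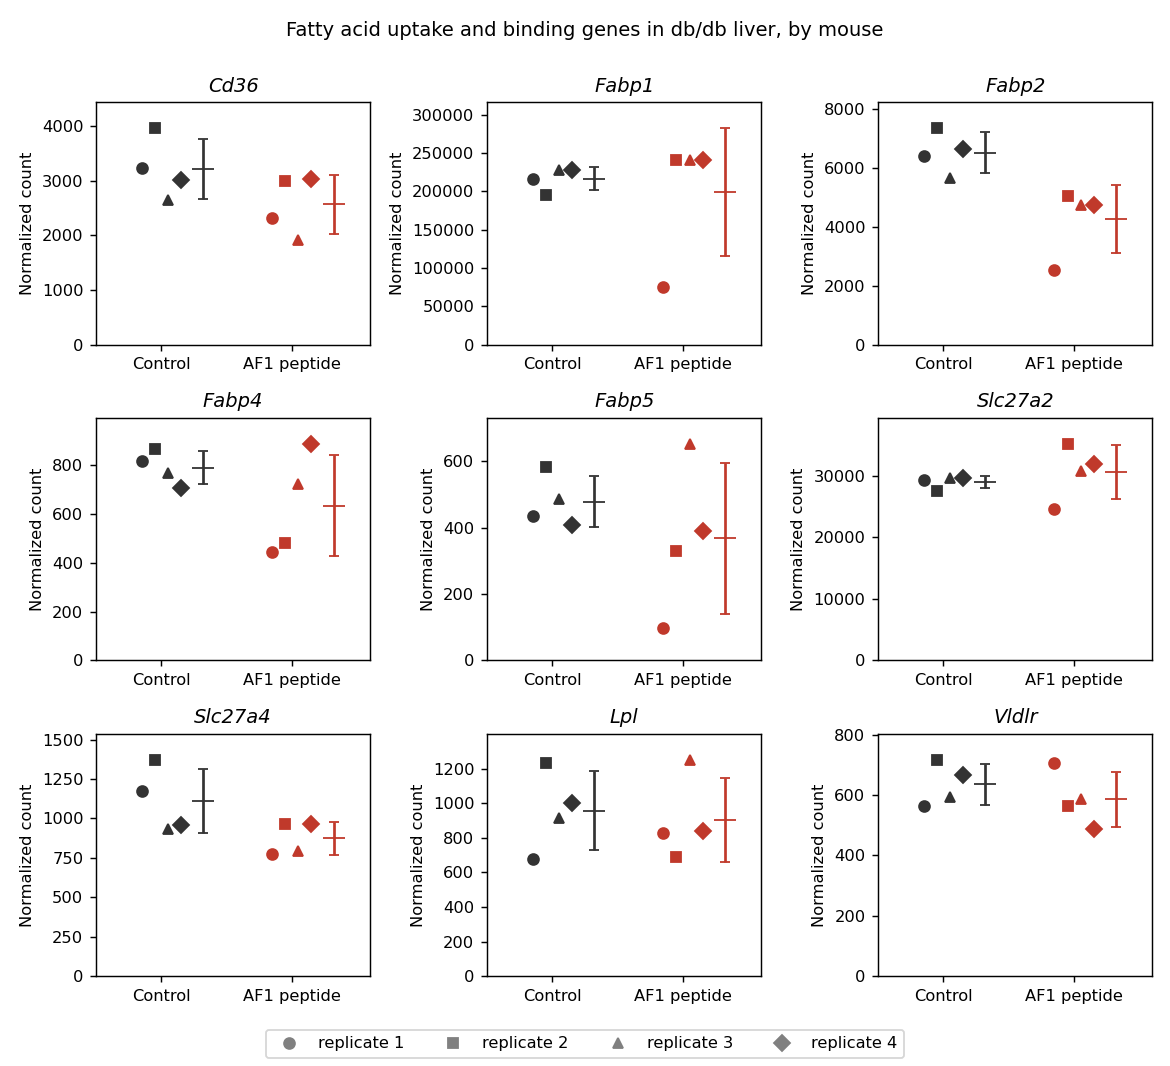
Normalized count (y axis, linear from 0) of each of the 9 genes in 4 control and 4 AF1 peptide mice, with 1 point per mouse, symbols for the replicate number, and a bar for the mean with its SD (n = 4). The groups are apart only for Fabp2, and AF1 peptide replicate 1 (circle) is far below the other 3 AF1 peptide mice for Fabp1 and Fabp2.

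The promoters of 4 genes are shown because they carry the comparison: those of Fabp2 and Slc27a4, which fell, of Cd36, whose difference missed the threshold, and of Fabp1, the most abundant, for the PPAR-type element in it. Each is the 250 bases before the start site in RefSeq GRCm38.p6, 5′ to 3′ on the strand of the gene. The build named in the submitters' processing notes is mm39, so these positions belong to the reference and not to the table. Capitals mark matches to the nuclear receptor half-site AGGTCA or to the direct repeat AGGNCANAGGNCA (DR1, the type of element that PPARs bind with RXR), on either strand. The windows lie at chr6:71199629-71199878 (plus strand) for Fabp1, chr3:122894822-122895071 (plus strand) for Fabp2, chr2:29802384-29802633 (plus strand) for Slc27a4 and chr5:17835897-17836146 (minus strand) for Cd36.
Fabp1: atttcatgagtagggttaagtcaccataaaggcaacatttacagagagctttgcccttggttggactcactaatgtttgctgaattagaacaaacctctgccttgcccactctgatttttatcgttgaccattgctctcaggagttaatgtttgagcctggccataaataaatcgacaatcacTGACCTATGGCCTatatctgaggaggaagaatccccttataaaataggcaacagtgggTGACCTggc
Fabp2: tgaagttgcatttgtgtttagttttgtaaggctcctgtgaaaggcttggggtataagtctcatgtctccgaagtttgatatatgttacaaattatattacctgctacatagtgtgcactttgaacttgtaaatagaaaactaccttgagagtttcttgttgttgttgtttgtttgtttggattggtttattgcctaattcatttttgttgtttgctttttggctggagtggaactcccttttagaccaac
Slc27a4: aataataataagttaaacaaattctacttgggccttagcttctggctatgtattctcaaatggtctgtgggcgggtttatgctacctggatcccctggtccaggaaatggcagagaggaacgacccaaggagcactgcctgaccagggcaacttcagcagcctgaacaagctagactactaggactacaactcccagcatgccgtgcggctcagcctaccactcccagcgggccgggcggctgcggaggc
Cd36: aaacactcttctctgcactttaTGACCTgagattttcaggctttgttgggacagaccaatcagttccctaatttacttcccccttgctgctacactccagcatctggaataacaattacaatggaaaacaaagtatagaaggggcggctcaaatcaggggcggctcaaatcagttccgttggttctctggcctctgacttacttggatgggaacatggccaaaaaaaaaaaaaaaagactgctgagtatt

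Of the 6 genes with a promoter in this reference, which gave 7 windows because Vldlr has 2, the DR1 pattern was found only in Fabp1. It lies on the minus strand 67 to 55 bases before the start site, and its first 6 bases as printed are at the same time a half-site match. A second half-site lies 9 to 4 bases before the start, and a TATAAA sequence 30 to 25 bases before it. DR1 matches occurred in 0.338% of 32851 promoter windows of the same length (111 windows). A half-site occurred in 14.0% of those windows, TATAAA in 12.4% and the GC box GGGCGG in 32.7%, all searched on both strands. Cd36 has a half-site 228 to 223 bases before the start and 2 GC boxes, Slc27a2 has a half-site 220 to 215 bases before it and 2 GC boxes, Slc27a4 has 2 GC boxes and no half-site, and 1 of the Vldlr windows has a GC box. The Fabp2 window holds none of these motifs. A match is a description of letters and not of a bound site, and these RNA data measured no binding.

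The level of the genes was compared per kilobase of the principal transcript (GENCODE M21), since longer transcripts give more reads. In control mice, Fabp1 stood at 391586 ± 27708 normalized counts per kilobase (SD, n = 4), 39.4 times the next gene. Slc27a2 followed with 9951 and Fabp2 with 6745, and then came Cd36 (944), Fabp4 (879), Fabp5 (485), Slc27a4 (274), Lpl (233) and Vldlr (79.6). The control mice of neighbouring genes overlapped for Cd36 and Fabp4 and for Slc27a4 and Lpl, and for no other neighbours in this order. With AF1 peptide the first 6 genes kept this order by their means, while Lpl (219) and Slc27a4 (215) changed places within overlapping ranges. The level of Slc27a2 per kilobase was 1.48 times that of Fabp2 in control mice and 2.38 times that of Fabp2 with AF1 peptide.

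**Figure D2:**
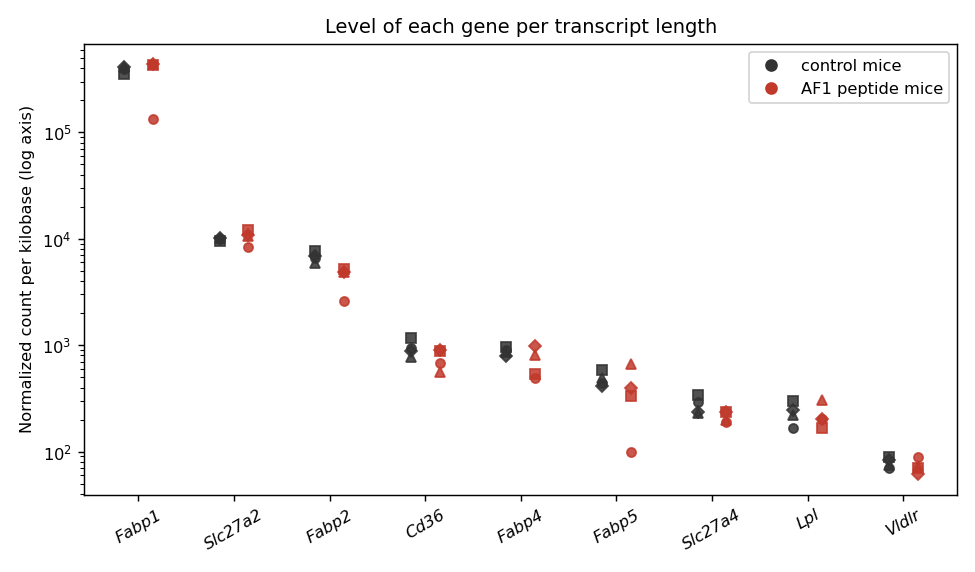
Normalized count per kilobase of principal transcript (y axis, log scale) of the 9 genes in control and AF1 peptide mice, with 1 point per mouse and the genes ordered by the control mean. Fabp1 lies 39.4 times above Slc27a2 in control mice, and the lowest Fabp1 point is AF1 peptide replicate 1.

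Cd36 codes for a scavenger receptor that takes up long-chain fatty acids and oxidized lipoproteins. It was measured at 3225, 3955, 2642 and 3012 normalized counts in control replicates 1 to 4. AF1 peptide replicates 1 to 4 had 2323, 2983, 1914 and 3034. All 4 AF1 peptide mice were below the control mean and 2 of them were below every control mouse, but the groups overlapped. The mean was 3208 ± 553 in control mice and 2563 ± 541 with AF1 peptide (SD, n = 4 each). The log2 fold change was -0.33 with an SE of 0.17 and a 95% confidence interval of -0.71 to 0.04, and limma gave an unadjusted p of 0.0774 and an adjusted p of 0.763. The unadjusted p was under 0.05 in 3 of the 8 fits that leave out 1 mouse and in 2 of the 11 fits with all mice. The 3 were those without control replicate 3 (log2 -0.42, limma unadjusted p = 0.0434), AF1 peptide replicate 2 (-0.41, 0.0482) or AF1 peptide replicate 4 (-0.42, 0.0416). The 2 were equal totals (-0.42, 0.0309) and the replicate block (-0.33, 0.0177). Among the fits above 0.05 were those without control replicate 2 (-0.23, 0.216), AF1 peptide replicate 1 (-0.29, 0.117) or AF1 peptide replicate 3 (-0.20, 0.224). With the variance of this gene alone, the unadjusted limma p was 0.146.

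Slc27a4 codes for fatty acid transport protein 4, an acyl-CoA synthetase for long and very long chains. Its normalized counts were 1173, 1371, 936 and 959 in control mice and 773, 964, 794 and 962 in AF1 peptide mice. AF1 peptide replicates 1 and 3 were below every control mouse, while replicates 2 and 4 lay just above control replicates 3 and 4. The mean fell from 1110 ± 204 to 873 ± 104 (SD, n = 4 each), or by a log2 value of -0.34 with an SE of 0.14 and a 95% confidence interval of -0.65 to -0.02 (limma, unadjusted p = 0.0383, adjusted p = 0.763). The call was kept in 4 of the 8 fits that leave out 1 mouse. It was lost without control replicate 1 (log2 -0.30, limma unadjusted p = 0.0911), control replicate 2 (-0.23, 0.117), AF1 peptide replicate 1 (-0.28, 0.0733) or AF1 peptide replicate 3 (-0.29, 0.0898). It was also lost when limma was run without the intensity trend (unadjusted p = 0.0622) or with the variance of this gene alone (unadjusted p = 0.0753).

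Slc27a2 codes for fatty acid transport protein 2, the very long-chain acyl-CoA synthetase of liver and kidney. Control mice had 29297, 27585, 29615 and 29654 normalized counts, with a coefficient of variation of 3.38%, the lowest of the 9 genes in control mice. AF1 peptide mice had 24591, 35183, 30735 and 31956. AF1 peptide replicate 1 was below every control mouse and the other 3 were above every control mouse. The means of 29038 ± 982 and 30616 ± 4434 (SD, n = 4 each) gave a log2 fold change of 0.06 with a 95% confidence interval of -0.26 to 0.39 (limma, unadjusted p = 0.664, adjusted p = 0.936). Without AF1 peptide replicate 1 the log2 fold change was 0.17 (limma, unadjusted p = 0.1996), and with equal totals it was -0.03. In the reference annotation 9.80% of the 50-base words of Slc27a2 are shared with Gm26697, which overlaps it on the opposite strand over 419 exon bases, and whether the counting used strand is not given in the sources used here.

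Lpl codes for lipoprotein lipase, which releases fatty acids from circulating lipoproteins and is low in healthy adult hepatocytes. Its normalized counts were 678, 1232, 916 and 1003 in control mice and 826, 689, 1250 and 839 in AF1 peptide mice. The lowest mouse was a control and the highest had received AF1 peptide, so the groups covered nearly the same range. The means were 957 ± 229 and 901 ± 242 (SD, n = 4 each), a log2 fold change of -0.09 with a 95% confidence interval of -0.55 to 0.37 (limma, unadjusted p = 0.672, adjusted p = 0.937). The coefficient of variation of the control mice, 23.9%, was the highest among the 9 genes. The difference changed sign without control replicate 2 (log2 0.04) or without AF1 peptide replicate 2 (log2 0.03). With AF1 peptide replicate 1 left out, the log2 fold change was -0.06 (limma, unadjusted p = 0.782).

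Vldlr codes for the very-low-density lipoprotein receptor, which takes up triglyceride-rich lipoproteins. Control mice had 564, 716, 593 and 665 normalized counts and AF1 peptide mice had 705, 563, 588 and 488. It was the only gene of the 9 in which AF1 peptide replicate 1 was the highest of its group, and the groups overlapped. The means were 635 ± 68.7 and 586 ± 90.4 (SD, n = 4 each), with a log2 fold change of -0.12 and a 95% confidence interval of -0.41 to 0.17 (limma, unadjusted p = 0.372, adjusted p = 0.852). Without AF1 peptide replicate 1 the log2 fold change was -0.21 (limma, unadjusted p = 0.0920).

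Fabp2, the intestinal fatty acid-binding protein, had the smallest p of the 9 genes. Control mice had 6409, 7333, 5656 and 6638 normalized counts, and AF1 peptide mice had 2524, 5036, 4720 and 4726. Every AF1 peptide mouse was below every control mouse, which held for none of the other 8 genes (11.1% of the 9) and for 1.85% of all tested genes (296 genes). The mean fell from 6509 ± 691 to 4251 ± 1161 (SD, n = 4 each), a log2 fold change of -0.66 with an SE of 0.20 and a 95% confidence interval of -1.11 to -0.21 (limma, unadjusted p = 0.00876, adjusted p = 0.763). AF1 peptide replicate 1 was the lowest, and the other 3 mice of its group were close to each other at 4827 ± 180 (SD, n = 3). Without replicate 1 the log2 fold change was -0.43 (limma, unadjusted p = 0.00201). The unadjusted p stayed under 0.05 in all 8 fits that leave out 1 mouse and in all 11 fits with all mice, over which the log2 fold change ranged from -0.75 to -0.61.

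Fabp1, the liver fatty acid-binding protein and one of the main cytoplasmic proteins of hepatocytes, was the most abundant of the 9. Control mice had 215917, 195095, 227616 and 227560 normalized counts. AF1 peptide replicates 2 to 4 had 240360, 240575 and 240678, all above every control mouse, whereas AF1 peptide replicate 1 had 74597.5, or 34.4% of the control mean. The group means were 216547 ± 15323 and 199053 ± 82970 (SD, n = 4 each), and the log2 fold change was -0.27 with a 95% confidence interval of -1.14 to 0.61 (limma, unadjusted p = 0.511, adjusted p = 0.897). Without AF1 peptide replicate 1 the sign turned, with a log2 fold change of 0.15 (limma, unadjusted p = 0.487). The other 3 AF1 peptide mice differed by a coefficient of variation of 0.0674%, and the counting error of a single mouse was at most 0.354%. As a share of all reads, which uses no size factor, these mice were less alike. Fabp1 made up 0.571, 0.664 and 0.615% in these mice, 0.228% in AF1 peptide replicate 1 and 0.560 to 0.741% in control mice. The share of reads was 0.620 ± 0.0822% in control mice and 0.520 ± 0.198% with AF1 peptide (SD, n = 4 each; two-sided exact permutation test, p = 0.514, where the smallest possible p is 0.0286).

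Fabp4 codes for the adipocyte fatty acid-binding protein, which macrophages and endothelial cells also make. Control mice had 815, 863, 766 and 706 normalized counts and AF1 peptide mice had 444, 482, 721 and 884. AF1 peptide replicates 1 and 2 were far below every control mouse, replicate 3 lay within the control range and replicate 4 was the highest of all 8. The means were 788 ± 67.1 and 633 ± 208 (SD, n = 4 each), and the log2 fold change was -0.37 with a 95% confidence interval of -0.82 to 0.08 (limma, unadjusted p = 0.0960, adjusted p = 0.765). It was past the threshold without AF1 peptide replicate 4 (log2 -0.55, limma unadjusted p = 0.00991) and with equal totals (-0.46, 0.0425). It was -0.22 without AF1 peptide replicate 1 (limma, unadjusted p = 0.232).

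Fabp5 codes for the epidermal fatty acid-binding protein, which macrophages also make. Its normalized counts were 436, 583, 488 and 409 in control mice and 97.0, 331, 652 and 390 in AF1 peptide mice. AF1 peptide mice included both the lowest value of the 8, replicate 1 at 20.3% of the control mean, and the highest, replicate 3. The means were 479 ± 76.8 and 367 ± 228 (SD, n = 4 each), with a log2 fold change of -0.66 and a 95% confidence interval of -1.67 to 0.36 (limma, unadjusted p = 0.181, adjusted p = 0.789). Fabp5 and Fabp2 thus had the same log2 fold change to 2 decimals, and of these 2 genes only Fabp2 had an unadjusted limma p under 0.05. Without AF1 peptide replicate 1 the log2 fold change of Fabp5 was -0.11 (limma, unadjusted p = 0.590) and without AF1 peptide replicate 3 it was -1.03 (limma, unadjusted p = 0.0316). In the reference annotation 5.48% of its 50-base words are shared with 5 other genes, among them Fabp5l2, so that its counts are uncertain where reads could be split. Fabp5 was also the gene with the fewest reads, 104 to 791 per mouse, which gives a counting error of up to 9.81%.

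**Figure D3:**
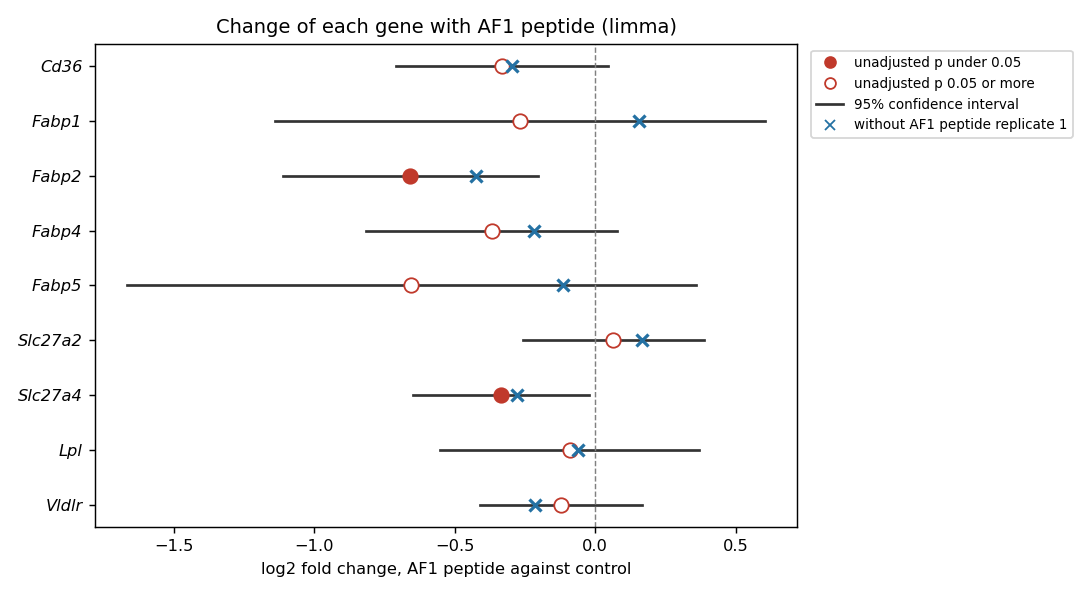
log2 fold change of each of the 9 genes (x axis, AF1 peptide against control; y axis, the genes) with its 95% confidence interval from limma over 8 mice, where filled points have an unadjusted p under 0.05 and crosses give the value without AF1 peptide replicate 1. The intervals of Fabp2 (-1.11 to -0.21) and Slc27a4 (-0.65 to -0.02) lie wholly below 0, and the cross of Fabp1 lies above 0 at 0.15.

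AF1 peptide replicate 1 was the lowest of all 8 mice in 6 of the 9 genes and below every control mouse in 7, and its median log2 difference from the control mean was -0.50. AF1 peptide replicates 2, 3 and 4 were below every control mouse in 4, 3 and 3 genes and above every control mouse in 2, 4 and 3, with median differences of -0.18, -0.10 and -0.16. How often each mouse was lowest or outside the control range over all tested genes was not counted. Whether these counts are particular to the 9 genes was therefore not tested. Among control mice, replicate 2 was the highest of all 8 in 4 genes. After the mean of each group was taken off, 25 of the 36 pairs of genes were positively correlated over the 8 mice, with a median Pearson r of 0.28. Without AF1 peptide replicate 1 this was so for 16 of the 36 pairs, with a median r of -0.11. The points of these correlations share their library, its depth and its size factor.

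**Figure D4:**
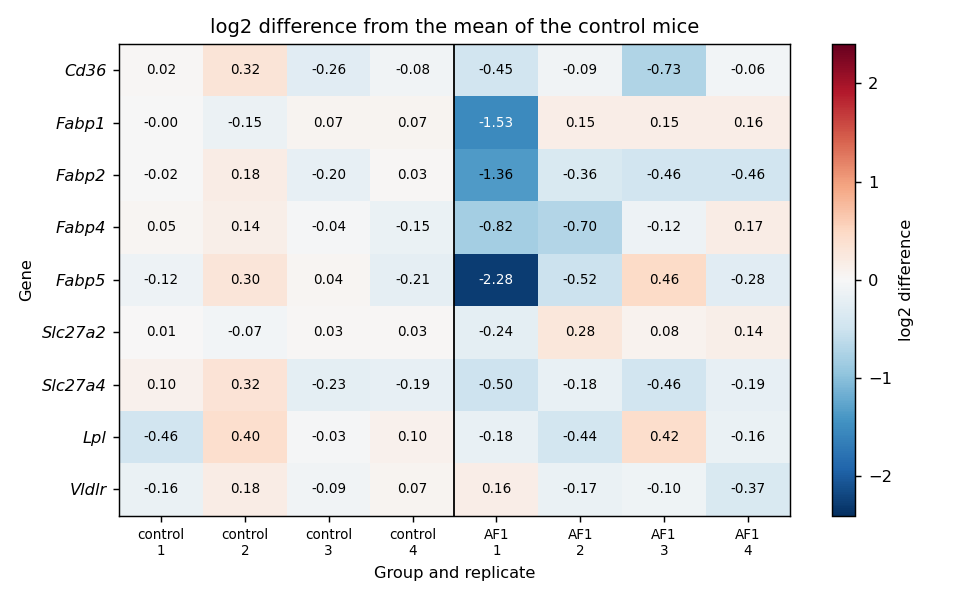
log2 difference of each mouse (columns, 4 control and 4 AF1 peptide mice) from the mean log2 value of the control mice for each of the 9 genes (rows), with blue for lower and red for higher values. The column of AF1 peptide replicate 1 is the darkest blue, down to -2.28 for Fabp5, and Fabp2 is the only row that is below every control in all 4 AF1 peptide mice.

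Levels of cell type markers also moved with AF1 peptide replicate 1. Its summed normalized count of 6 hepatocyte markers (Alb, Ttr, Apoa1, Cps1, Tat and Ass1) was 1757710, against 2376370 to 2511170 in control mice and 2056040 to 2500710 in the other AF1 peptide mice. Alb carries most of this sum, and the 6 markers did not move together. Alb, Ttr and Apoa1 were below every control mouse in AF1 peptide replicate 1, while the urea cycle enzymes Cps1 and Ass1 and the tyrosine-degrading enzyme Tat were above every control mouse. Cps1 was at 34575.8 in this mouse (6605 to 13727 in control mice), Tat at 68707 (7551 to 23826) and Ass1 at 188675 (46110 to 77767). The 7 Kupffer cell and macrophage markers summed to 2112 in this mouse, to 4640 to 5806 in control mice and to 5194 to 5435 in AF1 peptide replicates 2 to 4, and 6 of the 7 were below every control mouse in it. The 6 markers of recruited macrophages summed to 1097 in it, against 1827 to 3188 in control mice and 1635 to 3114 in the other AF1 peptide mice, with each of the 6 below every control mouse in it. The share of all tested genes that were below every control mouse in AF1 peptide replicate 1 was not counted. The sums of the 6 endothelial markers (3965 in this mouse) and of the 5 stellate cell markers (2856) were below the control ranges of 4292 to 4843 and 3441 to 3948, but AF1 peptide mice 2 to 4 also reached down to 3807 and 2579. Of the endothelial markers, 3 were below every control mouse in AF1 peptide replicate 1, 2 were within the control range and Stab2 was above it (1954 against 1543 to 1851). Of the stellate cell markers, 4 were below every control mouse in it and 1 was within the range. Hepatocyte markers thus gave by far the highest sums in every mouse, as the label liver says. Of the 5 enterocyte markers, Vil1 and Lct were measured and summed to 4.12 to 10.7 in every mouse, beside 2524 to 7333 normalized counts of Fabp2. Of the 5 adipocyte markers, Cfd and Retn summed to 11.2 in AF1 peptide replicate 1 and to 20.1 to 104 in control mice, and Adipoq, Plin1 and Lep were not found by these symbols among the genes of the table. Red blood cell markers (34147 to 123375 in control mice, 27111 in AF1 peptide replicate 1, 49135 to 51923 in the other AF1 peptide mice) and the measured marker of exocrine pancreas, Cela1 (181 to 250 in all mice), completed the check. Among the markers of all lists, Adgre1 (1 of 7 macrophage markers) and Dcn (1 of 5 stellate cell markers) had an unadjusted limma p under 0.05. The other marker lists held no call, and 6.19% of all tested genes were called. The part of any cell type in the values of the 9 genes was not tested, and in whole liver fewer cells of a type and less RNA per cell cannot be told apart.

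The other fatty acid carriers and binding proteins held 2 genes that fell and none that rose, out of 10 tested of 14 listed, where 3.03% of all tested genes were called lower. Without 1 mouse this number was 0 (control replicate 1), 1 (control replicate 2 or 4, AF1 peptide replicate 1 or 2) or 2 to 3, and 1 and 2 genes were called higher without control replicate 3 and AF1 peptide replicate 4. In these fits 1.59 to 5.48% of all tested genes were called lower and 3.38 to 10.1% in either direction. Mfsd2a, a transporter of lysophosphatidylcholine with long-chain fatty acids, had 15435, 12980, 13845 and 12843 normalized counts in control mice and 11862, 11127, 10671 and 10629 with AF1 peptide, with no overlap, as in 1.85% of all tested genes in this direction (log2 -0.31, SE 0.11, limma unadjusted p = 0.0161, adjusted p = 0.763). It lost the call only without control replicate 1 (log2 -0.26, limma unadjusted p = 0.0563). Dbi, the acyl-CoA-binding protein, had 37168, 39240, 33803 and 38842 in control mice and 23918, 31201, 30911 and 31812 with AF1 peptide, also with no overlap (log2 -0.35, SE 0.15, limma unadjusted p = 0.0394, adjusted p = 0.763). Its call was lost in 5 of the 8 fits that leave out 1 mouse, those without control replicate 1, 2 or 4 or without AF1 peptide replicate 1 or 2, with log2 fold changes of -0.38 to -0.25 and unadjusted limma p values of 0.0508 to 0.0878, and under the replicate block (unadjusted p = 0.0530). Slc27a5, the bile acid and very long-chain acyl-CoA synthetase of liver, was 10621 ± 1482 in control mice and 12462 ± 4009 with AF1 peptide (SD, n = 4 each; log2 0.19, limma unadjusted p = 0.379). Its log2 fold change was -0.00742 without AF1 peptide replicate 1 (limma unadjusted p = 0.960). The list had 6 lower and 4 higher genes and a median of -0.17, or of -0.06 without AF1 peptide replicate 1.

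The lipoprotein lipase system and lipoprotein receptors held no called gene among 18 tested of 19 listed, where 6.19% of all tested genes were called. In this list 5 genes were lower and 13 higher. The median log2 fold change was 0.03, or 0.05 without AF1 peptide replicate 1. Gpihbp1, which anchors lipoprotein lipase on capillaries, was 553 ± 47.4 in control mice and 515 ± 71.7 with AF1 peptide (SD, n = 4 each; log2 -0.11, limma unadjusted p = 0.382). Angptl4, an inhibitor of lipoprotein lipase that fatty acids induce through PPARs, was 3254 ± 569 and 3255 ± 1098 (log2 -0.06, limma unadjusted p = 0.812), with AF1 peptide replicate 1 the lowest mouse at 1646. Leaving out this mouse gave Angptl4 a log2 fold change of 0.24 (limma unadjusted p = 0.116). Lipc, the hepatic lipase, was 2044 ± 310 in control mice and 2070 ± 398 with AF1 peptide (SD, n = 4 each; log2 0.01, limma unadjusted p = 0.951).

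Among 18 PPARs and partner regulators, Nr1i2 rose and none fell, with 13 higher and 5 lower and a median of 0.03. This 1 call is 5.56% of the list, and 6.19% of all tested genes were called. In the fit without AF1 peptide replicate 1, 2 genes of the list were called higher and 1 lower. That is 16.7% of the list, where 10.1% of all tested genes were then called. Nr1i2, the pregnane X receptor and a known inducer of Cd36 in mouse liver, had 3649, 3200, 4099 and 4176 normalized counts in control mice and 5072, 4606, 4773 and 4270 with AF1 peptide, with no overlap (log2 0.31, SE 0.11, limma unadjusted p = 0.0180, adjusted p = 0.763). Nr1i2 lost the call without control replicate 2 (log2 0.24, limma unadjusted p = 0.0575) and with equal totals (0.22, 0.202). Nr1h3 of the same list, picked after its values were seen, also had no overlap in this direction (log2 0.17, limma unadjusted p = 0.141). The share of all tested genes with no overlap in the higher direction was not counted. Pparg, the PPAR of adipose tissue, was 671 ± 72.2 in control mice and 685 ± 46.5 with AF1 peptide (SD, n = 4 each; log2 0.03, limma unadjusted p = 0.757). Ppara, the main PPAR of hepatocytes, had a log2 fold change of -0.03 (limma unadjusted p = 0.83).

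The 17 tested PPARA target genes of 18 listed held 1 call, Ehhadh, with 12 lower, 5 higher and a median of -0.17. The call is 5.88% of the list, where 6.19% of all tested genes were called, and without AF1 peptide replicate 1 the list had 7 lower, 10 higher and a median of 0.06. Ehhadh, the bifunctional enzyme of peroxisomal fatty acid oxidation, was 6574 ± 1359 in control mice and 5090 ± 585 with AF1 peptide (SD, n = 4 each; log2 -0.35, SE 0.16, limma unadjusted p = 0.0465, adjusted p = 0.763), and the groups overlapped. It lost the call without control replicate 1 (log2 -0.26, limma unadjusted p = 0.138), control replicate 4 (-0.27, 0.130), AF1 peptide replicate 2 (-0.34, 0.0868) or AF1 peptide replicate 3 (-0.28, 0.124), and when limma was run without the trend (unadjusted p = 0.0687) or with the variance of this gene alone (0.0893). All 7 fat storage genes linked to PPARG in fatty liver had lower mean log2 values with AF1 peptide, with a median of -0.46. None of the 7 had an unadjusted limma p under 0.05 (adjusted p of 0.768 or more), where 6.19% of all tested genes were called. When AF1 peptide replicate 1 was left out, 5 of the 7 were lower and the median was -0.06. Cidea, a lipid droplet protein picked after its values were seen, had 38.3 normalized counts in this mouse, 1698 to 2204 in the other AF1 peptide mice and 1437 to 3436 in control mice.

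**Figure D5:**
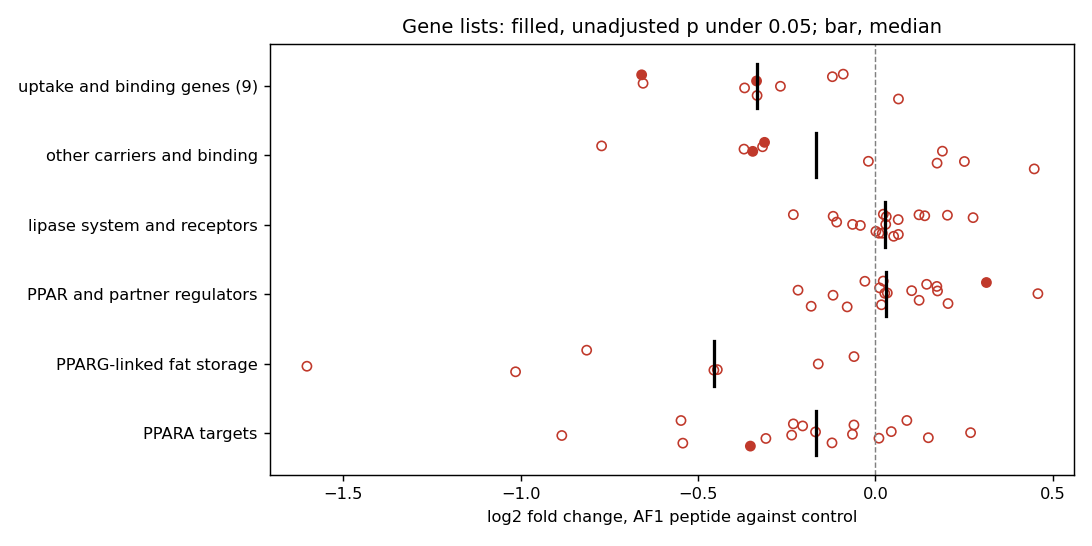
log2 fold change (x axis, AF1 peptide against control) of each tested gene of the 9 uptake and binding genes and of 5 related lists (rows), with filled points for an unadjusted limma p under 0.05 and a bar for the median of each list. The bar of the uptake and binding genes is at -0.33, that of the PPARG-linked fat storage genes at -0.46 with no filled point, and the lipase system is centred near 0.

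The genes whose pattern over the 8 mice was most like each of the 9 were listed by Pearson r of log2 values after the group means were taken off, among 12442 genes with a mean of at least 50. For Fabp2 these were Gpc1 (r = 0.99 over 8 mice, 0.96 without AF1 peptide replicate 1) and Sema5b (0.99 and 0.89). For Fabp4 they were Efemp1 (0.97 and 0.96) and Dpt (0.97 and 0.99). For Slc27a4 they were Rbpms2 (0.98 and 0.99) and Rdh10 (0.98 and 0.99), for Cd36 Ppt1 (0.98 and 0.98) and Bpnt2 (0.98 and 0.98), and for Fabp5 Lrrc28 (0.99 and 0.95) and Dennd1c (0.99 and 0.94). For Lpl they were Gm41958 (0.99 and 0.99) and Egr1 (0.96 and 0.98), for Vldlr Slc50a1 (0.96 and 0.93) and Map1lc3b (0.95 and 0.90), and for Slc27a2 Zfp687 (0.99 and 0.96). For Fabp1, Limk1 and Pltp had r values above 0.99 over 8 mice and of 0.74 and 0.80 without AF1 peptide replicate 1. Each pair was picked as the best among all these genes over few mice that share their libraries, so the values only describe likeness.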

How the data were processed

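Liver RNA of 8 mice was made into 1 library each. The authors trimmed the reads (Trim Galore 0.6.7), aligned them with HISAT2, sorted them with SAMtools 1.17, counted them per gene and deposited a normalized signal, in which each read count is divided by 1 size factor per library. The submitters' processing notes name the build mm39, and the strand setting of the counting is not given in the sources used here. Whole reads were recovered for 100% of 172256 values (tolerance 0.01), and depth was 23031880 to 45117528 reads per mouse. Counting errors cover the counting of reads only.

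Groups and replicate numbers came from the sample labels. The log2(normalized count + 1) of the 15989 genes with a mean of at least 10 was tested with limma 3.58.1 (R 4.3.3, trend, two-sided), which was also tested on simulated data, and p values were adjusted by the Benjamini-Hochberg method over all tested genes. Single values per mouse were compared by exact permutation. Alternatives were pseudocounts of 0.5 and 5, no filter, TMM rescaling, equal totals, no trend, own variance, a replicate block, count tests of the recovered reads (DESeq2 1.42.0, edgeR 4.0.16) and each mouse left out. The members and lists were chosen with earlier results of these data known. Named genes are the 9 members, 6 fixed partners, the up to 4 called genes of each list with the smallest p, and the 2 genes most like each member, less 2 genes that are not reported here. Promoter sequences came from RefSeq GRCm38.p6, and transcript lengths and shared 50-base words from GENCODE M21.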

Additional observations from a re-analysis of the deposited data

Results flagged for a closer look

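In 4 of 44 groups of 4 mice, 1 mouse lay apart from the others by Dixon's ratio (the gap to the nearest mouse over the whole range, set against its 95% critical value), where chance gives about 2.2. For Fabp1 in AF1 peptide mice the ratio was 0.998, with replicate 1 at 74597.5 normalized counts and the others at 240360 to 240678. For Fabp2 in AF1 peptide mice it was 0.874, with replicate 1 at 2524 and the others at 4720 to 5036. For Dbi in AF1 peptide mice it was 0.886, with replicate 1 at 23918 and the others at 30911 to 31812. For the total reads of control mice it was 0.857, with replicate 1 at 45117528 and the others at 35260283 to 36673520. In 3 of the 4 cases the mouse apart was AF1 peptide replicate 1, and what set this mouse apart was not tested.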

How the results depend on the processing

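With 1 mouse left out at a time, the log2 fold change ranged from -0.42 to -0.20 for Cd36, -0.41 to 0.15 for Fabp1, -0.55 to -0.22 for Fabp4, -1.03 to -0.11 for Fabp5, -0.00593 to 0.17 for Slc27a2, -0.41 to -0.23 for Slc27a4 and -0.26 to 0.0412 for Lpl. The range was -0.00742 to 0.34 for Slc27a5, -0.0721 to 0.12 for Lipc, -0.20 to 0.24 for Angptl4, -0.00767 to 0.098 for Pparg and -0.0883 to 0.0843 for Ppara. The number of the 9 genes called lower ranged from 1 to 4, that of all genes called higher from 285 to 732 and lower from 255 to 876, and the difference in total reads (AF1 peptide minus control) from -4529760 to 2452330.

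With equal totals, 129 genes were called higher and 769 lower, 4 of the 9 genes were called lower, and log2 fold changes were -0.42 for Cd36 and -0.46 for Fabp4 (now called) and -0.0263 for Slc27a2, -0.0813 for Lipc and -0.0577 for Pparg (reversed), while the median of all genes moved from -0.0083 to -0.10. Slc27a4 (-0.34) was not called without the trend or with its own variance, which left 1 of the 9 called. The log2 fold change of Angptl4 was 8.8e-07 by edgeR and 0.0032 by DESeq2, where limma gave -0.06, so none of the 3 showed a change. DESeq2 found 3 genes of the table with an adjusted p under 0.05, and limma found 0 (990 at an unadjusted p under 0.05) and edgeR 0. The causes were not tested.

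The replicate numbers stand for different mice, and whether they also pair the mice was not tested. Same-numbered mice correlated at 0.24, 0.02, 0.22 and -0.06, with a mean of 0.10, against a mean of -0.03 for mice with different numbers. Of the control libraries, 2 correlated best with their own number. With the replicate block, Cd36 (-0.33) was called, 597 genes were higher and 647 lower. Among the 9 genes, counting errors were highest for Fabp5, Fabp4 and Vldlr, at up to 9.81, 6.15 and 5.70%.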
